A study of Rattus norvegicus with 36 samples.

Results

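Liver endothelial markers are 8 genes that mark the cells lining the blood vessels of the liver: Kdr, Tek, Eng, Stab2, Lyve1, Pecam1, Cdh5 and Vwf. They were chosen by name and not by a cut on their measured values, but with earlier results of these data known. A probe set was taken as a member where the platform annotation gives it 1 gene symbol and that symbol is on the list. By this rule 7 of the 8 genes have 9 probe sets among 31042 probe sets and 14217 measured genes, with 2 probe sets each for Kdr and Lyve1. Cdh5, the cadherin of endothelial junctions, was not analysed here. RNA came from the left liver lobe of male Harlan Sprague Dawley rats that began treatment at an age of 7 weeks, dosed by gavage in corn oil (5 ml/kg) on 5 consecutive days and killed 1 day after the last dose. The groups received corn oil alone as vehicle, or, in mg/kg per day, 0.1 and 0.97 at the low end, 9.71 in the middle and 97.1 and 970 at the high end of decabromodiphenylethane (DBDPE), a brominated flame retardant. Each group had 6 animals, and each animal gave 1 Affymetrix array, 36 in all. The arrays carry labelled copies of whole-liver RNA, so a marker's signal falls alike when there are fewer endothelial cells and when each holds less of the RNA, and these cannot be told apart.

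Liver sinusoids are lined by a thin, perforated endothelium that takes up waste macromolecules from blood and signals to the hepatocytes around it. Its growth and survival depend on the vascular endothelial growth factor (VEGF) receptor encoded by Kdr, while the angiopoietin receptor encoded by Tek keeps vessels stable. Endoglin, from Eng, is a co-receptor for bone morphogenetic protein (BMP) ligands. Stabilin-2, from Stab2, is the main hyaluronan scavenger receptor of sinusoidal cells, and Lyve1, another hyaluronan receptor, marks both sinusoidal and lymphatic endothelium. Pecam1 encodes an adhesion molecule of endothelial junctions that platelets and leukocytes also carry. Vwf encodes von Willebrand factor, stored in Weibel-Palade bodies of larger-vessel endothelium and in platelets.

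The values are log2 signals after robust multi-array averaging (RMA), and array medians lay between 5.07 and 5.12. Each gene is given by its brightest probe set, the one of highest mean signal. Taken so, all 7 markers lay above the median of the array on all 36 arrays. So did all 9 hepatocyte markers measured, among them Alb (albumin), whose log2 signal was between 14.64 and 14.68, and all 10 Kupffer cell markers. The platelet markers did so for 3 of 7 and the T and NK cell markers for 0 of 10. Taking the brightest probe set favours such a place, and the share of all genes that held it was not counted. The other Kdr probe set lay below the array median on all 36 arrays. As a check of the labels of the 2 upper doses, the log2 signal of Cyp1a1, a gene induced through the aryl hydrocarbon receptor, averaged 8.06 ± 1.05 at 97.1 mg/kg and 10.81 ± 0.63 at 970 mg/kg, against 4.57 ± 0.15 in vehicle (SD, n = 6 each). It averaged 4.60 ± 0.21 at 0.1, 4.73 ± 0.22 at 0.97 and 4.86 ± 0.17 at 9.71 mg/kg (limma adjusted p of 0.978 or more). Cyp1a1 thus does not check the labels of these 3 doses.

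Sequences of the start regions are shown for the endothelial members whose RefSeq start lies within 89 bases of the gene's outer end, because transcription factors of the ETS family, such as ERG and FLI1, bind GGAA-centred sites in many endothelial promoters. RefSeq's table for rat build GRCr8 held 4 of the 8 members. Each window runs from 250 bases before to 50 bases after the start, 300 bases in all, and capitals mark every CCGGAA and GGAAG on either strand.
Kdr, chr14:32571813-32572112, plus strand: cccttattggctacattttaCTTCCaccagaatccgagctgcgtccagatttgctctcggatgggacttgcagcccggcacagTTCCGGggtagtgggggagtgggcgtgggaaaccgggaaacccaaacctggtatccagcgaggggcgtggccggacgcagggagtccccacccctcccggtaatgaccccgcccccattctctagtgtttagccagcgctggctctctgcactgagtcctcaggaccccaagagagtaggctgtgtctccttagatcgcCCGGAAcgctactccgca
Eng, chr3:36332029-36332328, plus strand: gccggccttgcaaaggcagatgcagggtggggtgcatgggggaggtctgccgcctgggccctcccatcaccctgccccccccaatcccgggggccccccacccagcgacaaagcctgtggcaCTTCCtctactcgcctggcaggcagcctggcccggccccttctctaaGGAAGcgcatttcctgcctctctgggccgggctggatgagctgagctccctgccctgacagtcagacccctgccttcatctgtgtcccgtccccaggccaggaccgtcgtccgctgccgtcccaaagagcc
Lyve1, chr1:174410928-174411227, minus strand: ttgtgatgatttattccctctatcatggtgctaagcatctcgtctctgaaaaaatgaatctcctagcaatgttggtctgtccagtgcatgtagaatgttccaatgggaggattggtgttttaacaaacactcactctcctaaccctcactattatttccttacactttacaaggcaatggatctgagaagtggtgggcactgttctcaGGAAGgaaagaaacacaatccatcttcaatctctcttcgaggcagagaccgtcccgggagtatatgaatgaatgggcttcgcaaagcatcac
The Kdr window held CCGGAA at 2 places and GGAAG at 1, the Eng window GGAAG at 2 places, and the Lyve1 window GGAAG at 1. No marked stretch overlaps another. Over 27457 rat promoter windows of the same length, 15.8% held CCGGAA and 70.1% held GGAAG on at least 1 strand. The window listed for Stab2 starts 22071 bases inside the gene and is not printed. It held GGAAG at 1 place. A match of letters is a description and shows no binding.

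The comparison of each dose with vehicle asks which liver transcripts DBDPE changes. None of the 7 endothelial markers passed at any dose (limma, Benjamini-Hochberg adjusted p of 0.966 or more over all 31042 probe sets, threshold 0.05). Over all probe sets 0% passed at each of 0.1, 0.97 and 9.71 mg/kg, 0.00644% at 97.1 mg/kg and 0.00644% at 970 mg/kg. At 970 mg/kg the 7 markers had a median log2 difference of -0.08 from vehicle, against -0.0040 over all probe sets, and 6 of the 7 lay below 0, as did 51.9% of all probe sets. At the other doses the median was -0.02 at 0.1 mg/kg with 4 below 0 (50.4% of all probe sets), 0.03 at 0.97 mg/kg with 3 below 0 (50.0%), -0.05 at 9.71 mg/kg with 5 below 0 (50.9%), and -0.06 at 97.1 mg/kg with 6 below 0 (49.5%). For the slope over the dose steps, described with Kdr, the median was -0.014 per step with 6 of 7 below 0, as were 51.2% of all probe sets. With the beta-actin control difference, an indirect measure of RNA length described with Tek, as a covariate, the members' median was -0.05 at 970 mg/kg. It was -0.0084 per step for the slope, each with 5 of 7 below 0. The share of all probe sets below 0 with this covariate was not counted. The 5 comparisons of a dose with vehicle share the 6 vehicle arrays. In no marker were a dose group and vehicle free of overlap, where 0.139% of all probe sets were at 0.1 mg/kg, 0.235% at 0.97, 0.180% at 9.71, 0.151% at 97.1 and 0.200% at 970 mg/kg. An unadjusted p under 0.05 was reached by 0 of the 7 at each dose, against 4.46%, 4.92%, 5.06%, 5.42% and 4.87% of all probe sets from 0.1 up to 970 mg/kg. The 95% intervals of the 7 markers stayed within a 1.22-fold change of the signal in either direction at 970 mg/kg. The widest bound at any dose was 1.25-fold, at 0.97 mg/kg. These values take each gene by its brightest probe set. The other Kdr probe set, described below, had intervals excluding 0 at 0.1 and 970 mg/kg, with neither past the threshold.

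**Figure D1:**
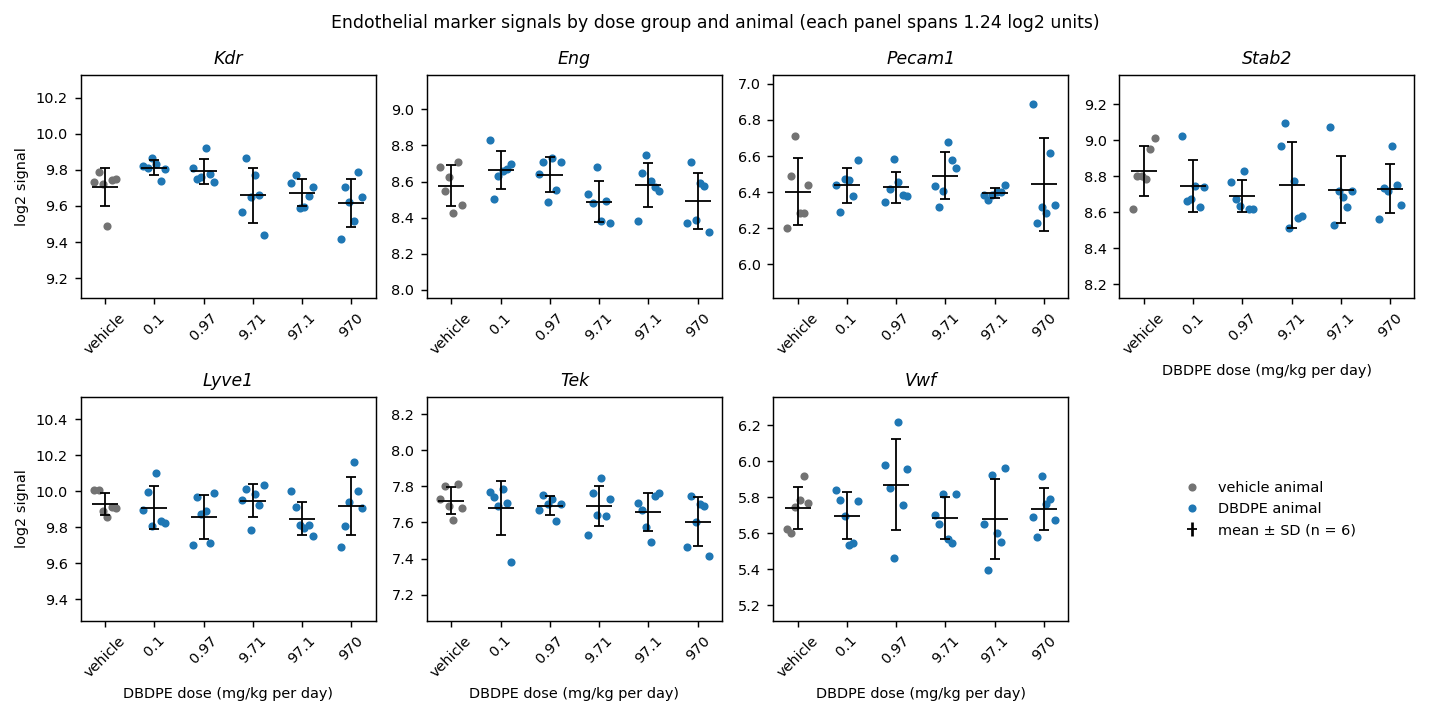
Log2 signal of 7 endothelial markers in each of the 36 animals, by dose from vehicle to 970 mg/kg; every panel spans the same range of log2 units, points are animals and bars are mean ± SD (n = 6). Groups overlap in every panel, and the Pecam1 signal of 6.89 in 1 animal at 970 mg/kg lies above all other Pecam1 values.

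Among the growth factor receptors, Kdr lay between 9.41 and 9.79 on the log2 scale at 970 mg/kg with a median of 9.63, against 9.49 to 9.79 with a median of 9.74 in vehicle. The ranges overlap, and 1 animal at 970 mg/kg lay below every vehicle animal. The log2 difference was -0.09 (95% interval -0.22 to 0.04, limma adjusted p = 0.966). Mean Kdr signals were 9.71 ± 0.11 in vehicle, 9.81 ± 0.04 at 0.1 mg/kg, 9.79 ± 0.07 at 0.97 mg/kg, 9.66 ± 0.15 at 9.71 mg/kg, 9.67 ± 0.08 at 97.1 mg/kg and 9.62 ± 0.13 at 970 mg/kg (SD, n = 6 each). The 2 lowest doses thus had the highest means, with 5 of 6 animals at 0.1 mg/kg above every vehicle animal, and the 3 upper doses the lowest. Kdr was the 1 marker of 7 with an unadjusted p under 0.05 in the F test over the 5 doses (limma adjusted p = 0.999), where 4.18% of all probe sets reached it and 0.00644% passed after adjustment. It was also the 1 marker of 7 to do so for a slope over the dose steps, from 0 for vehicle to 5 for the highest dose, at -0.029 on the log2 scale per step (95% interval -0.051 to -0.0063, limma adjusted p = 0.863). For the slope 5.70% of all probe sets had an unadjusted p under 0.05 and 0.00644% passed after adjustment, so this Kdr slope is not past the threshold. Of the Kdr variance over the 36 arrays 35.9% lay between the groups, against a median of 12.5% over all probe sets. The other Kdr probe set lay below the array median in all 36 arrays, and after removal of the group means it did not follow the first (r = 0.012). Its log2 difference was -0.21 at 0.1 mg/kg (95% interval -0.35 to -0.07, limma unadjusted p = 0.0050, adjusted p = 0.999). There the first Kdr probe set had 0.11. At 970 mg/kg the other probe set had -0.16 (-0.30 to -0.02, limma unadjusted p = 0.028, adjusted p = 0.966).

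Tek lay between 7.41 and 7.75 at 970 mg/kg with a median of 7.65, against 7.61 to 7.81 with a median of 7.71 in vehicle. Of the animals at 970 mg/kg 3 lay below every vehicle animal and the other 3 lay among them. The log2 difference of -0.12 (95% interval -0.25 to 0.01, limma adjusted p = 0.966) was the largest in size among the 7 markers at this dose. Tek had -0.04 at 0.1, -0.03 at 0.97, -0.03 at 9.71 and -0.06 at 97.1 mg/kg, below 0 at all 5 doses with every interval spanning 0. Its slope was -0.019 per dose step (limma adjusted p = 0.885). The beta-actin control difference, the 3′ minus the 5′ control signal and an indirect measure of RNA length, averaged 1.19 ± 0.08 at 970 mg/kg and 1.12 ± 0.07 in vehicle (SD, n = 6 each). With that difference as a covariate Tek had -0.06 at 970 mg/kg.

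Eng, the BMP co-receptor, lay between 8.32 and 8.71 at 970 mg/kg with a median of 8.48, against 8.43 to 8.71 with a median of 8.59 in vehicle. At 970 mg/kg 3 animals lay below every vehicle animal and 1 lay just above them all. The log2 difference was -0.08 (95% interval -0.22 to 0.06, limma adjusted p = 0.972). At the other doses Eng had 0.09 at 0.1, 0.06 at 0.97, -0.09 at 9.71 and 0.0055 at 97.1 mg/kg, so that like Kdr its highest means were at the 2 lowest doses. The Eng slope was -0.023 per dose step (-0.048 to 0.0013, limma adjusted p = 0.875).

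Of the hyaluronan receptors, Stab2 lay between 8.57 and 8.97 at 970 mg/kg with a median of 8.73, against 8.62 to 9.01 with a median of 8.80 in vehicle. The ranges are nearly the same, and 1 animal at 970 mg/kg lay below the vehicle range. The log2 difference was -0.10 (95% interval -0.28 to 0.09, limma adjusted p = 0.976). Stab2 had -0.08 at 0.1, -0.14 at 0.97, -0.08 at 9.71 and -0.10 at 97.1 mg/kg. The vehicle group thus had the highest Stab2 mean, 8.83 ± 0.14 (SD, n = 6), with no ordered change over the doses and a slope of -0.014 (limma adjusted p = 0.941).

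Lyve1 lay between 9.69 and 10.16 at 970 mg/kg with a median of 9.92, against 9.86 to 10.01 with a median of 9.91 in vehicle. Animals at 970 mg/kg thus lay on both sides of the vehicle range, with an SD of 0.16 against 0.06 (n = 6 each). The log2 difference was -0.01 (95% interval -0.15 to 0.12, limma adjusted p = 0.993). The other Lyve1 probe set followed the first across animals (r = 0.89 after removal of the group means, 36 arrays) and had -0.07 (-0.22 to 0.08). The 2 Lyve1 probe sets had -0.02 and -0.03 at 0.1 mg/kg, -0.07 and -0.09 at 0.97 mg/kg, 0.02 and 0.04 at 9.71 mg/kg, and -0.08 and -0.10 at 97.1 mg/kg.

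Pecam1 lay between 6.23 and 6.89 at 970 mg/kg with a median of 6.32, against 6.20 to 6.71 with a median of 6.36 in vehicle. Pecam1 thus overlaps almost wholly between these groups, with replicate 1 at 970 mg/kg alone above the vehicle range. The log2 difference was 0.04 (95% interval -0.13 to 0.21, limma adjusted p = 0.982), and without that animal it was -0.05. The SD among animals was 0.19 in vehicle, 0.03 at 97.1 mg/kg and 0.26 at 970 mg/kg (n = 6 each). Pecam1 log2 differences at the other doses were 0.04 at 0.1, 0.03 at 0.97, 0.09 at 9.71 and -0.0072 at 97.1 mg/kg.

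Vwf lay between 5.58 and 5.92 at 970 mg/kg with a median of 5.73, against 5.60 to 5.92 with a median of 5.76 in vehicle. These groups had almost the same Vwf range. The log2 difference was -0.0051 (95% interval -0.20 to 0.19, limma adjusted p = 0.996). The widest Vwf group was 0.97 mg/kg, from 5.46 to 6.22, with a log2 difference of 0.13 (-0.06 to 0.32, limma adjusted p = 0.985). There 3 of 6 animals lay above every vehicle animal and 1 below. Vwf had -0.04 at 0.1, -0.06 at 9.71 and -0.06 at 97.1 mg/kg.

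**Figure D2:**
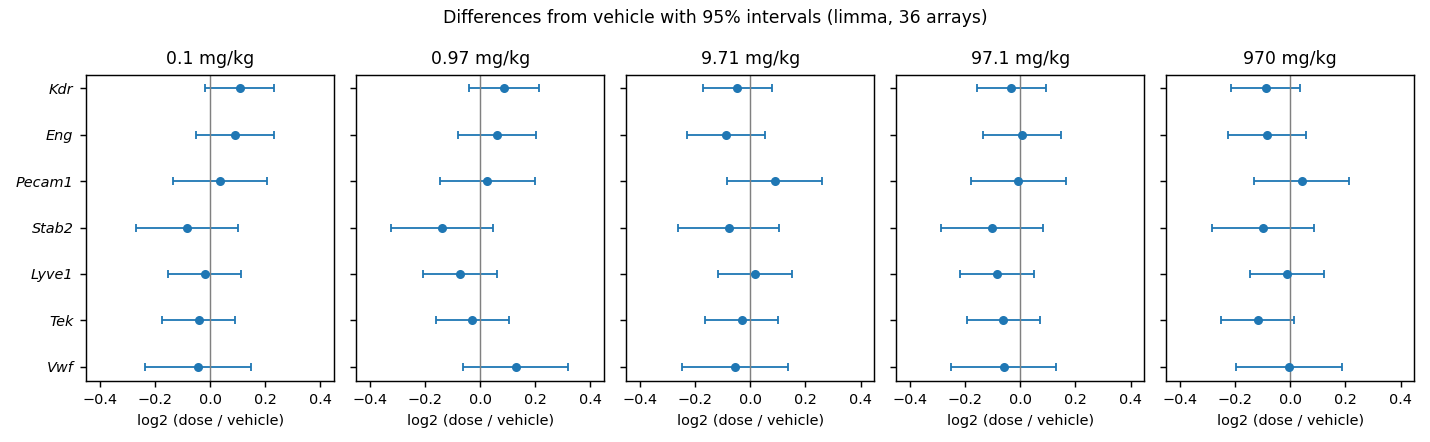
Log2 difference from vehicle of 7 endothelial markers at each dose, with 95% intervals from limma over 36 arrays. Each gene is shown by its brightest probe set. Every interval shown includes 0, and at 970 mg/kg the differences run from -0.12 for Tek to 0.04 for Pecam1.

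The members were then set against each other, animal by animal, after subtraction of each group's mean, so that no dose difference enters. Over the 21 pairs of the 7 markers the median Pearson r was 0.04, against a median of 0 over all pairs of the 14217 measured genes, where the 5th and 95th percentiles were -0.34 and 0.36. Of the 21 pairs 11 were above 0 (52.4%), against 49.9% of all gene pairs. Genes of 1 array share its RNA and its normalization, so these correlations are not independent of each other.

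The highest values joined the angiopoietin receptor Tek with Lyve1 and with the VEGF receptor Kdr. Lyve1 and Tek had r = 0.45 and Spearman rho = 0.43 over 36 arrays (permutation p = 0.0177 and 0.0143 within dose groups, two-sided, 0.217 and 0.171 after adjustment over the 21 pairs). Kdr and Tek had r = 0.41 and rho = 0.44 (permutation p = 0.0207 and 0.0163, 0.217 and 0.171 after adjustment). Both pairs had an r above 0 within each of the 6 dose groups, and neither passed after adjustment. Of all gene pairs 2.12% had an r at least as high as Lyve1 and Tek, and 3.01% as high as Kdr and Tek. Without the 2 arrays farthest from the median of the first gene, r was 0.37 for Lyve1 and Tek and 0.45 for Kdr and Tek. With the beta-actin difference also removed, it was 0.28 for Lyve1 and Tek and 0.46 for Kdr and Tek. Among all other measured genes ranked by r, Tek was number 136 of 14216 for Kdr and 168 for Lyve1. In the ranking for Tek, Lyve1 was number 452 and Kdr 642.

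Stab2 had r = 0.32 with Lyve1, 0.31 with Kdr, 0.27 with Vwf and 0.22 with Tek (unadjusted permutation p from 0.0610 to 0.244, adjusted p from 0.427 to 0.614). Stab2 was above 0 with Kdr and with Tek in 6 of 6 dose groups, with Vwf in 5 and with Lyve1 in 4. Eng had 0.23 with Vwf, 0.20 with Kdr and 0.17 with Tek, and stood near 0 with Stab2 (0.04) and Lyve1 (-0.04). Pecam1 was below 0 with all 6 other markers, from -0.22 with Lyve1 to -0.11 with Vwf, and none of these passed (adjusted permutation p of 0.614 or more). With Spearman's rho Pecam1 and Kdr had 0.04, so that this sign holds for 5 of the 6, and without the 2 arrays farthest from its median Pecam1 had an r of 0.02 with Lyve1. Without Pecam1, a choice that was not planned, the median r over the 15 other pairs was 0.20, with 11 above 0. All 6 Pecam1 pairs were below 0, so leaving them out could not lower these values. They therefore do not show that the other markers vary together.

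**Figure D3:**
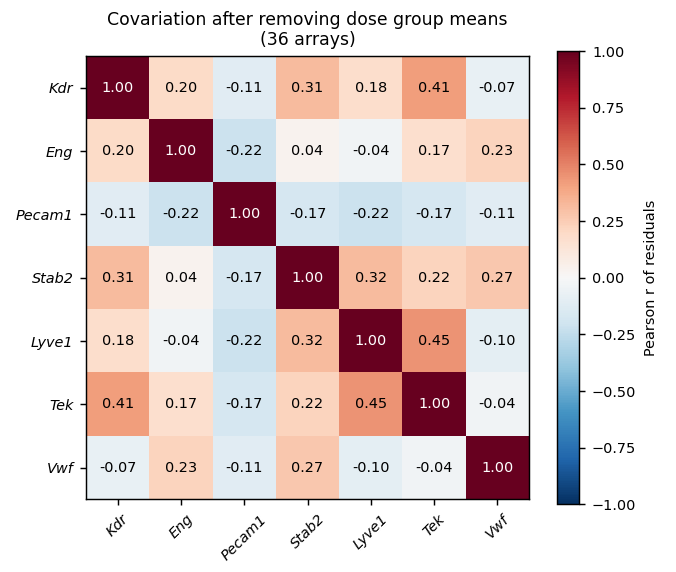
Pearson r between 7 endothelial markers over 36 arrays after each dose group's mean was removed; red is above 0 and blue below. The highest values are 0.45 for Lyve1 with Tek and 0.41 for Kdr with Tek, and the Pecam1 row is below 0 throughout.

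Each marker was also correlated with the mean of the other 6, scaled to unit variance. Tek had r = 0.39, Stab2 0.37, Kdr 0.34, Lyve1 0.21, Eng 0.13, Vwf 0.06 and Pecam1 -0.30. Ranked among 14211 genes by this r, Tek was number 603, Stab2 841, Kdr 1477 and Pecam1 12981. The markers thus did not stand at the top of the genes that follow their own mean.

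The beta-actin control difference was set beside each marker as an indirect measure of RNA quality. It ran from 1.02 to 1.33 over the 36 arrays, and the same difference for the GAPDH control from -0.14 to -0.02. The markers were not set against the GAPDH difference. Within dose groups Tek had r = -0.55 and rho = -0.54 with the beta-actin difference (permutation p = 0.00213 and 0.00229, 36 arrays, in 7 such relations, 0.0149 and 0.0160 after adjustment over them), and r was below 0 in 6 of 6 groups. In limma Tek had a coefficient of -0.08 on the log2 scale per 0.1 of that difference, which did not pass over all probe sets (adjusted p = 0.103). Lyve1 had r = -0.42 and rho = -0.43 (permutation p = 0.0218 and 0.0175, 0.0763 and 0.0613 after adjustment over the 7 relations, limma adjusted p = 0.234). Without the 2 arrays farthest from the median of the control, r was -0.49 for Tek and -0.46 for Lyve1. The other markers lay between -0.31 for Stab2 and 0.20 for Pecam1. Of all measured genes 1.14% had an r as low as Tek, and of all probe sets 14.9% had an unadjusted p under 0.05 with this control and 0.454% passed.

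**Figure D4:**
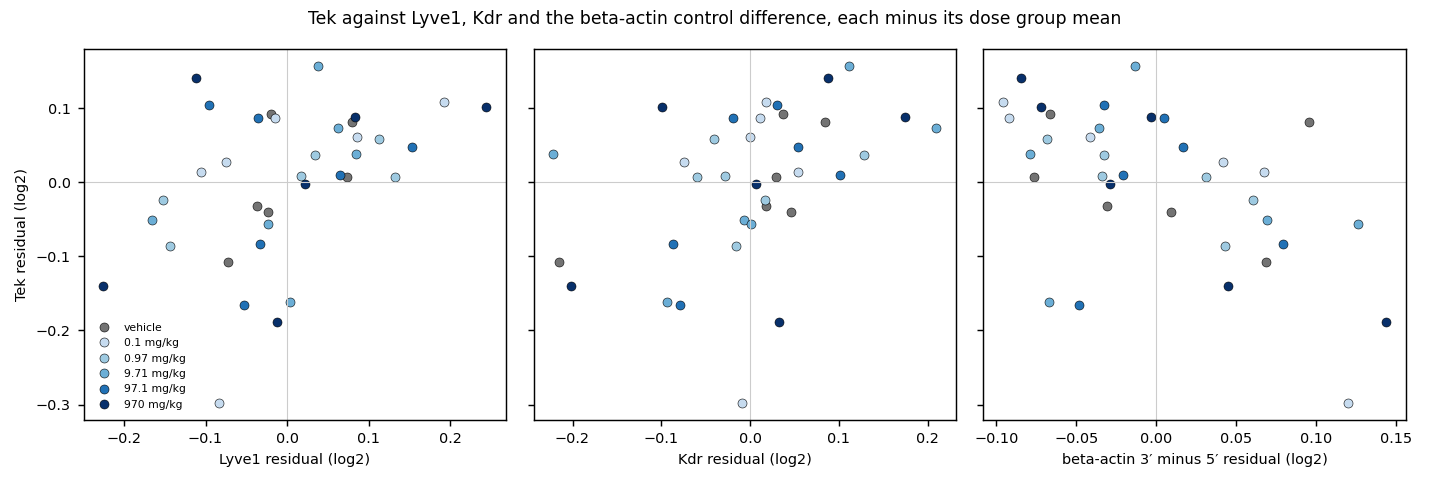
Tek in 36 animals against Lyve1, against Kdr and against the beta-actin 3′ minus 5′ control difference, all on the log2 scale with the dose group mean removed; colours give the dose. The clouds of points slope upward with Lyve1 (r = 0.45) and Kdr (r = 0.41) and downward with the control difference (r = -0.55).

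The genes most like the mean of the 7 markers, chosen as the highest r of 14210 other genes and so given as a description, were Fmo4 (r = 0.74, rho = 0.74), Mrc1 (0.67, 0.66), Dstl1 (0.66, 0.54), Coq2 (0.64, 0.64), Eef2k (0.64, 0.53), Cyp4f17 (0.64, 0.66), Akip1 (0.64, 0.67), Klf15 (0.64, 0.72), Sil1 (0.63, 0.66) and Uqcc3 (0.63, 0.65). Of these, Mrc1 encodes the mannose receptor, Fmo4 a flavin-containing monooxygenase and Coq2 an enzyme of coenzyme Q synthesis. Over all genes the 5th and 95th percentiles of this r were -0.37 and 0.40, and 1.23% of genes were above 0.5. For single markers over 36 arrays, Tek was closest to C13h1orf21 (0.75), Klhl5 (0.75) and Skap2 (0.72). Lyve1 was closest to Acer2 (0.71), Snx8 (0.69) and Mrc1 (0.68), and Eng to Nln (0.70), LOC102554403 (0.68) and P2rx7 (0.65). Stab2 was closest to Gen1 (0.66), Gstm5 (0.66) and Ns5atp4 (0.65), and Kdr to Arhgap35 (0.62), Plcg1 (0.59) and Exoc3l2 (0.58). Vwf was closest to Actg2, a smooth muscle actin gene (0.63), Rundc3b (0.62) and Mcm4 (0.61), and Pecam1 to Rp9 (0.57), Prr15l (0.56) and Mark1 (0.54). The members themselves were left out of this ranking, and the highest rank of any member for another was the 136th place of Tek for Kdr.

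Other endothelial genes, in 10 lists of 141 genes with 127 measured, gave the wider setting. None of the 127 rose or fell in any comparison (limma adjusted p under 0.05 in 0 of 127 at each dose, in the F test and for the slope). The share of the 127 below 0 was 59.1% at 0.1 mg/kg, 52.8% at 0.97, 58.3% at 9.71, 66.1% at 97.1 and 63.0% at 970 mg/kg, against 50.4%, 50.0%, 50.9%, 49.5% and 51.9% of all probe sets. The median log2 difference of the 127 was -0.04 at 97.1 mg/kg and -0.03 at 970 mg/kg. An unadjusted p under 0.05 was reached by 5.51% of the 127 at 0.1 mg/kg, 5.51% at 0.97, 8.66% at 9.71, 9.45% at 97.1 and 7.87% at 970 mg/kg, against 4.46%, 4.92%, 5.06%, 5.42% and 4.87% of all probe sets. Genes below are the 3 of each list with the smallest p in the F test.

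The VEGF list, of ligands and receptors beside Kdr, had a median log2 difference of -0.02 at 970 mg/kg over 10 genes. Nrp2, a co-receptor, had -0.10, the ligand gene Vegfc 0.04 and the semaphorin receptor Plxnd1 -0.13 (95% interval -0.25 to -0.01). At the lower doses Nrp2 lay between -0.23 at 0.1 and -0.13 at 0.97 mg/kg, and Vegfc had -0.11 at 97.1 mg/kg. The angiopoietin and Tie list had -0.0077 over 5 genes, with -0.11 for Tie1, the orphan partner of the Tek receptor, -0.15 for the ligand gene Angpt2 and 0.02 for the phosphatase gene Ptprb. Tie1 lay below 0 at all 5 doses, between -0.19 at 9.71 and -0.11 at 970 mg/kg. Angpt2 had -0.28 at 0.97 mg/kg and Ptprb -0.13 at 97.1 mg/kg. The BMP and ALK1 list around Eng had 0.01 over 12 genes. Its signal transducers Smad1 and Smad9 had 0.20 (0.0043 to 0.39) and -0.06. The largest Smad9 difference was -0.27, at 0.1 mg/kg. At 970 mg/kg Id3, a target of the pathway, had 0.39 (-0.00075 to 0.78), the highest of the list.

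The list of scavenger and lectin receptors beside Stab2 and Lyve1 had a median of -0.03 at 970 mg/kg over 10 genes. Fcgr2b, the Fc receptor of sinusoidal endothelium, had -0.20 (95% interval -0.38 to -0.02) and a slope of -0.034 per dose step (limma adjusted p = 0.863), Scarb1 -0.03 and Clec4m -0.10. The junction and surface list beside Pecam1 had -0.06 over 18 genes, with -0.09 for the adhesion gene Esam, -0.06 for the sphingosine phosphate receptor S1pr1 and 0.10 for the caveolin Cav1. The Weibel-Palade and haemostasis list beside Vwf had -0.0080 over 11 genes, with 0.10 for Mmrn1, 0.22 for the protein C receptor Procr and -0.09 for the nitric oxide synthase Nos3. At other doses Scarb1 had -0.19 and Clec4m 0.22 at 9.71 mg/kg, and Cav1 -0.27 at 0.1 mg/kg. S1pr1 had 0.15 and Mmrn1 0.27 at 0.97 mg/kg, and Nos3 -0.26 at 97.1 mg/kg. None of these passed the test.

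Endothelial transcription factors had a median of 0.0019 at 970 mg/kg over 24 genes. Prox1, which lymphatic endothelium and hepatocytes express, had -0.27 (95% interval -0.49 to -0.04) and a slope of -0.063 per dose step (limma adjusted p = 0.833). Hey1, a Notch target, had -0.33 (-0.56 to -0.09). Maf had 0.03, against 0.24 at 9.71 mg/kg. The Notch list had -0.02 over 8 genes, with -0.39 for Hes1 (-0.89 to 0.11), -0.08 for the ligand gene Dll4 and -0.02 for Notch1. Hes1 had -0.48 at 97.1 mg/kg and Notch1 -0.17 at 9.71 mg/kg. Angiocrine factors, secreted by endothelium toward hepatocytes, had -0.06 over 9 genes, with 0.07 for Cxcl12, -0.07 for Apln and -0.13 for Ctsk. Cxcl12 had the smallest F-test p of the 127 genes (limma adjusted p = 0.996), with 0.23 at 9.71 mg/kg and -0.04 at 97.1 mg/kg.

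The list of other sinusoidal endothelial genes had the lowest median at 970 mg/kg, -0.12 over 20 genes, with 16 below 0. It was -0.05 at 0.1, -0.06 at 0.97, -0.02 at 9.71 and -0.11 at 97.1 mg/kg, with 13, 17, 15 and 15 of 20 below 0. At 970 mg/kg 4 of the 20 had an unadjusted p under 0.05, all lower, where 2.49% of all probe sets did so, and for the slope 6 of the 20, all lower, against 3.02%. Dnase1l3, a secreted deoxyribonuclease gene, had -0.15 (95% interval -0.27 to -0.03) and a slope of -0.026 (limma adjusted p = 0.863), the connexin gene Gja4 -0.14, and Il1r1, the interleukin-1 receptor, 0.22. The beta-actin difference was applied to this list as a covariate after its values were seen. With it the list's median at 970 mg/kg was -0.07 with 15 of 20 below 0. At an unadjusted p under 0.05, 2 genes were lower for the dose and 4 for the slope. The shares of all probe sets with this covariate were not counted, so these counts have no background beside them. Among markers of other cells, the median over 10 Kupffer cell genes was 0.17 at 0.1, 0.27 at 0.97, 0.17 at 9.71, 0.10 at 97.1 and 0.20 at 970 mg/kg, with 0, 0, 1, 2 and 0 genes below 0. The other marker medians at 970 mg/kg were -0.04 over 12 stellate cell genes, -0.0094 over 9 hepatocyte genes, -0.04 over 7 platelet genes and 0.09 over 10 T and NK cell genes. They were 0.13 over 3 B cell genes, 0.12 over 4 neutrophil genes, 0.10 over 5 bile duct genes and 0.07 over 5 erythroid genes. Smooth muscle had 0.02 over 6 genes and the mesothelial list -0.05 over 4. None of these marker genes passed either, and the part of changed cell shares in the endothelial values was not tested.

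Across animals, 85 of the 127 endothelial list genes (66.9%) had an r above 0 with the mean of the 7 markers, against 53.2% of all genes, and 16 (12.6%) lay above the 95th percentile of all genes. For the 75 marker genes of other cells these shares were 50.7% and 5.33%. They differed by list, with 10 of 10 Kupffer cell genes, 5 of 6 smooth muscle genes and 0 of 4 mesothelial genes above 0. The lists with the highest median r were the other sinusoidal genes (0.29, highest Tspan7 with 0.55), the angiopoietin and Tie list (0.29, Tie1 0.50) and the junction list (0.28, Mmrn2 0.58). The scavenger list ran from -0.45 for Cd302 to 0.67 for Mrc1. The scavenger list had a median of 0.19, the VEGF list 0.15, the haemostasis list 0.12 and the transcription factors 0.12. The BMP and ALK1 list had a median of -0.04, with 4 of 12 genes above 0. The Notch list had a median of -0.08 and the angiocrine list -0.16, with Apln at -0.40. Among markers of other cells the medians were 0.13 for Kupffer cells (Cd163 highest at 0.58), 0.23 for smooth muscle, 0.01 for hepatocytes, -0.04 for stellate cells (Rgs5 highest at 0.60), -0.11 for platelets and -0.39 for 4 mesothelial genes. The remaining marker medians were 0.21 for bile duct, 0.15 for erythroid, 0.08 for B cell, -0.09 for T and NK cell and -0.09 for neutrophil genes. These values describe 36 arrays that share normalization and RNA quality with the markers, and no test was made of them.

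**Figure D5:**
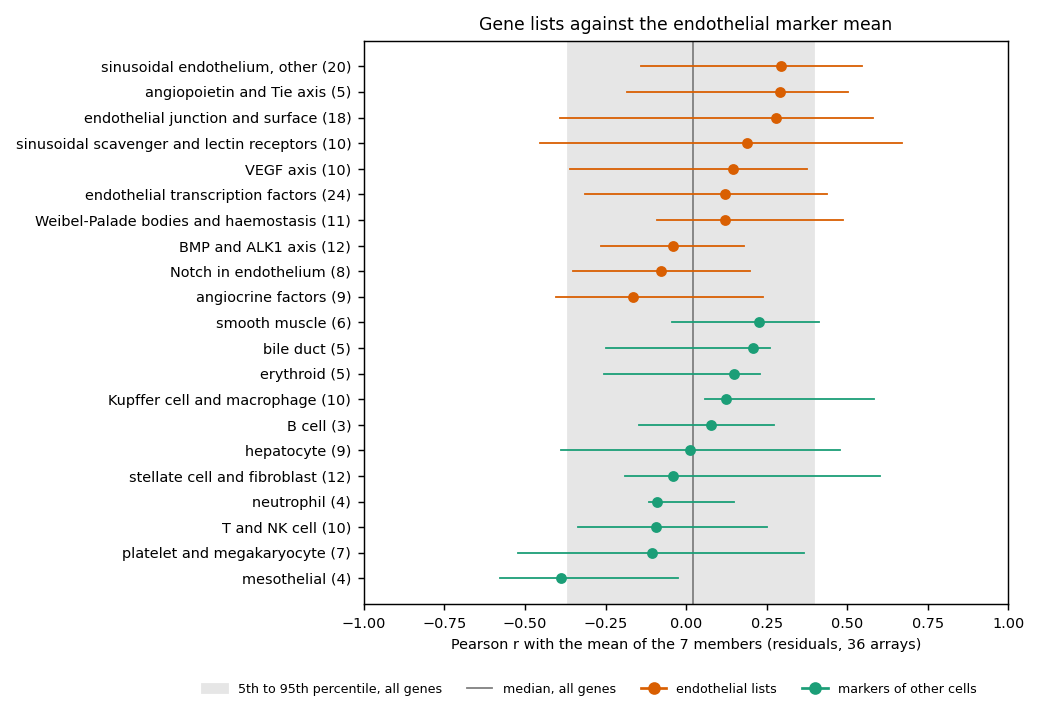
Pearson r of each gene with the mean of 7 endothelial markers over 36 arrays, dose group means removed, as the median (point) and range (line) of each list with its number of measured genes; orange lists are endothelial and green ones mark other cells. The grey band runs from the 5th to the 95th percentile of all genes (-0.37 to 0.40), and every median except that of the mesothelial list (-0.39) lies inside it.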

How the data were processed

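Liver RNA of 36 rats was measured on 36 Affymetrix 3′ arrays. RMA and affy are named in the submitters' processing notes, with versions not given in the sources used here. The authors deposited 1 log2 signal for each probe set and array, from 1.80 to 14.68 with 0 missing. From 31099 rows 57 controls were left out. Gene names come from the platform annotation, which names no genome build. Of 20826 probe sets with 1 gene, 20758 have an Entrez ID in RefSeq. Where several probe sets named a gene, the brightest on average stood for it.

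Limma 3.58.1 in R 4.3.3 (lmFit, eBayes) fitted 6 group means, and separately a slope on the dose step, over all 36 arrays and 31042 probe sets with no filter, two-sided, with a threshold of 0.05 on Benjamini-Hochberg adjusted p. Correlations used residuals from the group means, with 100000 shuffles within groups (Python 3.11.15, numpy 2.4.6). The method was tested on simulated data with independent noise, and with shifts and a correlation larger than those of the markers. That test does not show whether effects of the markers' size would be found. The number of arrays limits the precision. The labels number the animals within groups but give no shared animal, litter or day, and each was taken as its own rat. Otherwise p-values measure only the spread between these samples.

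The members and gene lists were chosen with earlier results of these data known. The named genes are the members, 3 genes of each list by the F test, the 10 genes nearest to the members' mean and the 3 nearest to each member. The 21 pairs are fewer than planned because Cdh5 was not analysed here. Alternatives were a block for the replicate number, array weights, cyclic loess, arrays centred on their medians, a robust prior with an intensity trend, the beta-actin covariate, a fit on 12 arrays alone, only brighter probe sets, averaged probe sets for each gene, and leaving out each array.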

Additional observations from a re-analysis of the deposited data

Results flagged for a closer look

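Among 54 combinations of a member probe set and a dose group, 4 had an animal far from the other 5 of its group by Dixon's test, where chance gives about 1 in 20. Kdr in vehicle replicate 4 was lowest at 9.49, with the next animal at 9.72. Tek in replicate 6 at 0.1 mg/kg was lowest at 7.38, with the next at 7.69. Stab2 was highest in replicate 1 at 0.1 mg/kg, at 9.02 with the next at 8.75, and in replicate 1 at 97.1 mg/kg, at 9.08 with the next at 8.72. The 2 Stab2 animals share only a number.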

How the results depend on the processing

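The number of probe sets past the threshold lay between 2 and 3 at 97.1 and 970 mg/kg, in the F test and for the slope, and was 0 at the other 3 doses, under the 8 alternatives run for each dose and the 7 run for the F test and the slope, and with any of the 36 arrays left out. No count was made with averaged probe sets, nor for the F test or slope with 12 arrays. None of the 7 markers passed in any of these fits. With the replicate number as a block 2 probe sets passed at 970 mg/kg, and it changed no call. Of 90 same-numbered pairs of arrays 19 had deviations with an r over 0.1 (mean 0.0043). Differently numbered pairs were not counted, so that count cannot be judged as many or few. The numbers were not taken as a pairing because the labels give no shared animal, litter or day. Small marker values changed sign. For Lyve1 at 970 mg/kg the log2 difference was 0.0040 with cyclic loess and 0.031 with the beta-actin covariate, and its slope 0.00089 with that covariate. With each array left out in turn, the difference at 970 mg/kg ran from -0.060 to 0.034 for Lyve1, from -0.047 (without 970 mg/kg replicate 1) to 0.10 for Pecam1 and from -0.041 to 0.030 for Vwf, and the slope from -0.012 to 0.00075 for Lyve1 and from -0.0076 to 0.012 for Pecam1. Kdr, Eng, Stab2 and Tek stayed below 0 at 970 mg/kg and for the slope in every fit run, while their size moved. At 970 mg/kg Kdr was -0.050 without 970 mg/kg replicate 1 and -0.13 without vehicle replicate 4. Eng was -0.13 without 970 mg/kg replicate 2 and -0.049 without 970 mg/kg replicate 6. With each array left out in turn, Stab2 ran from -0.15 to -0.061 and Tek from -0.15 to -0.080. Stab2 was -0.061 without vehicle replicate 6, -0.065 without 970 mg/kg replicate 1 and -0.053 with the beta-actin covariate, and Tek -0.063 with it. The Stab2 slope was -0.0078 without vehicle replicate 6 and also with the covariate, and the Tek slope -0.011 with it. With an array left out, the lowest slopes were -0.036 for Kdr (without vehicle replicate 4), -0.029 for Eng, -0.021 for Stab2 and -0.023 for Tek. The median r over the 21 pairs lay between -0.04 and 0.10 under 9 alternatives and between -0.03 and 0.16 with each array left out, against an SD of 0.16 over the 6 dose groups. With the first principal component of all genes also removed, added after seeing the data, r was 0.39 for Lyve1 with Tek and 0.48 for Kdr with Tek. The dim Kdr probe set lies below the array medians, where signal over background limits what a change can show.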
